A study of Rattus norvegicus with 6 samples.

Results

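The genes described here are those of antigen presentation by the major histocompatibility complex (MHC), of interferon signalling, and of cytokines and chemokines in the rat retina. They were chosen by symbol: every RT1 gene (the rat MHC), the Irf, Ifit, Ifitm and Oas families, the CXC chemokines, and named partners, receptors and cytokines, with case ignored and rows of 1 symbol summed. The rule found 110 genes on 116 of the 26406 rows of the table, out of 19623 symbols in all. The rule itself uses symbols only, not levels.

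The study profiled neural retina at postnatal day 60 in 6 rat samples, which fall into 3 groups of 2. One group was wild-type Long Evans and another Royal College of Surgeons (RCS), both after a sham operation, and the third was RCS with human neural progenitor cells (hNPCs) placed under the retina. The RCS strain loses its photoreceptors because a mutation in Mertk stops the pigment epithelium from clearing shed outer segments. All eyes were operated on at postnatal day 21, sham eyes with cell-free medium, and the dissected part was the one holding the graft or its counterpart, so no unoperated retina is included. The deposited table has a single FPKM value per gene (fragments scaled to transcript length and to all mapped fragments) and no column that names a sample. The values below therefore compare genes within 1 table, from 1 library or a pool, and no group is compared with another.

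As background, MHC class I molecules display peptides from inside the cell on nearly all nucleated cells, while class II molecules belong mainly to professional antigen-presenting cells. Interferons bind cell surface receptors whose kinases activate Stat and Irf transcription factors, and these switch on antiviral effectors together with class I genes. The healthy retina is an immune-privileged tissue in which these genes are mostly held low and microglia are the main resident immune cells.

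A few genes lay well above the others: the alarmin cytokine gene Il33, the class I light chain gene B2m with a few class I heavy chains, the interferon receptor gene IFNAR1 with the factor gene Irf3, and the chemokine genes Cxcl12 and Cxcl14. Il33 stood at 59.3 FPKM (deposited bounds 56.3 to 62.3) and was the highest of all 110 genes, at rank 739 of the 19623 symbols. Most others were low. The median was 0.705 FPKM, against 3.17 FPKM over all symbols. Of the 110 genes, 50 (45.5%) reached 1 FPKM, beside 61% of all symbols and 61.1% of those outside the list, and 21 were listed at 0. The share of 61% is also the one to set beside each count of genes at 1 FPKM below. At 10 FPKM or more there were 14 members (12.7%), beside 28.9% of all symbols. Nearest to the 1 FPKM mark lay RT1-M6-2 at 1.01 FPKM and Il18 at 0.799 FPKM.

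The deposited bounds show how few fragments many of these values rest on. If a bound lies 2 standard errors of a counting error from the value, the fragment number follows, and it is called the implied number here. It was 1568 for Il33, 725 for B2m and 5 for Il18. One fragment was worth between 0.0147 and 0.245 FPKM among members with at least 1 implied fragment. The bounds cover counting error, not the spread between animals or libraries.

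**Figure D1:**
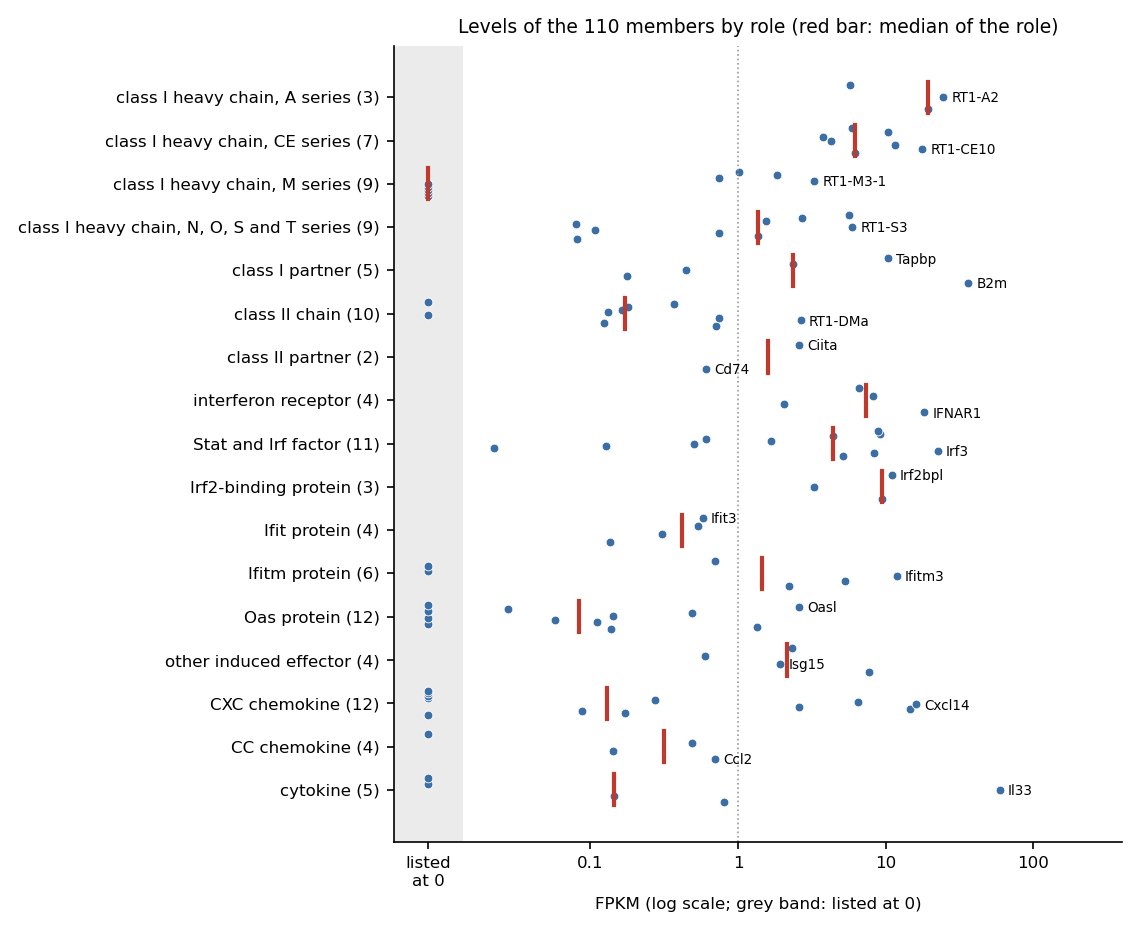
Each point is 1 of the 110 genes, placed by its FPKM on a log axis and grouped by role, with the number of genes in brackets, the role's median as a red bar and a dotted line at 1 FPKM. Il33 at 59.3 FPKM lies to the right of all others, and 21 genes sit in the grey band for values listed at 0.

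The retinal identity of the RNA and its immune content were read from marker lists. All 6 rod genes on the list were present, from Cnga1 at 293 FPKM to Gnat1 at 6316 FPKM. Müller glia genes ranged from 10.6 FPKM (Kcnj10) to 617 FPKM (Glul). Pigment epithelium genes, from the layer beside the neural retina, reached 1 FPKM in 4 of 6 cases, with a median of 4.65 FPKM. They ranged from Best1 at 0.270 FPKM and Tyr at 0.471 FPKM to Rpe65 at 20.7 FPKM and Ttr at 152 FPKM. Endothelial genes reached 1 FPKM in 6 of 7 cases, with a median of 1.91 FPKM, from Tie1 at 0.517 FPKM to Kdr at 52.2 FPKM. Astrocyte genes did so in 3 of 5, with a median of 3.08 FPKM, from Pax2 listed at 0 to S100b at 23.6 FPKM. Microglia and macrophage genes reached 1 FPKM in 8 of 16 cases and summed to 26.8 FPKM, with C1qa at 5.41 FPKM the highest and Cd68 and Spi1 listed at 0. None of 15 T and NK cell genes and none of 7 B cell genes reached 1 FPKM, and their sums were 1.90 and 0.250 FPKM. Among dendritic cell genes 1 of 7 did so, Zbtb46 at 2.19 FPKM, while 4 were listed at 0 and Itgax was at 0.0983 FPKM. Their part in the levels below was not tested.

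Class I heavy chains, the peptide-binding subunits, were present through the RT1-A and RT1-CE series. RT1-A2 stood at 24.5 FPKM (22.1 to 26.9), RT1-A1 at 19.5 FPKM (17.3 to 21.6) and RT1-A3 at 5.76 FPKM (4.26 to 7.27). RT1-A genes encode the classical class I chains of the rat. The bounds of RT1-A2 and RT1-A1 did not overlap, whereas those of RT1-A1 and RT1-CE10 (17.6 FPKM, 15.1 to 20.2) did. These bounds cover counting error only and not how fragments are divided among similar genes, so no order is read from them. The other 6 RT1-CE genes lay between 3.78 FPKM (RT1-CE4) and 11.7 FPKM (RT1-CE15). Together the 10 genes of these series summed to 109 FPKM, or 81.3% of the 135 FPKM of all 28 heavy chain genes.

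Genes of the other class I series were uneven and ranged from 0 to 5.97 FPKM. In the RT1-M series, 5 of 9 genes were listed at 0, and RT1-M3-1, which presents formylated peptides, was the highest at 3.27 FPKM (2.29 to 4.24). In the RT1-N, RT1-O, RT1-S and RT1-T series, 5 of 9 reached 1 FPKM. RT1-S3 stood at 5.97 FPKM (4.53 to 7.40) and RT1-T24-4 at 5.66 FPKM (4.54 to 6.79), while RT1-S2, RT1-N2 and RT1-T18 were at or below 0.108 FPKM with lower bounds of 0.

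The separate values of class I genes are uncertain, because these genes resemble one another and fragments can be divided among them. The implied fragment numbers bear on this. Taking rows with up to 200 implied fragments, the number was whole (to within 0.02) in 69.6% of 11492 rows of the table and in 44 of 60 member rows outside class I heavy chains. It was whole in 1 of 20 class I heavy chain rows, RT1-M5 with 8 fragments, and in none of the 8 RT1-A and RT1-CE rows in that range. RT1-CE7 also overlaps 2 rows without a symbol, at 10.3 and 3.06 FPKM.

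The MHC lies on chromosome 20, which holds 41 RT1 rows and 46 of the 116 member rows. In the rn5 build some of its genes are present as a pair of rows more than a megabase apart. The Tap2 rows, at chr20:6075091-6089133 and chr20:7259450-7272501 (as deposited, the latter under the symbol TAP2), stood at 1.10 and 1.28 FPKM and implied 30.0 fragments each. The RT1-DMa rows, at chr20:6015059-6018462 and chr20:7302036-7305439, had the same value, 1.33 FPKM, and 14.5 implied fragments each. RT1-DMb was divided into 5.5 and 4.5 fragments, and both RT1-Ha rows were listed at 0. The sums over both rows were 60.0 fragments for Tap2, 29.0 for RT1-DMa and 10 for RT1-DMb, all whole numbers.

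**Figure D2:**
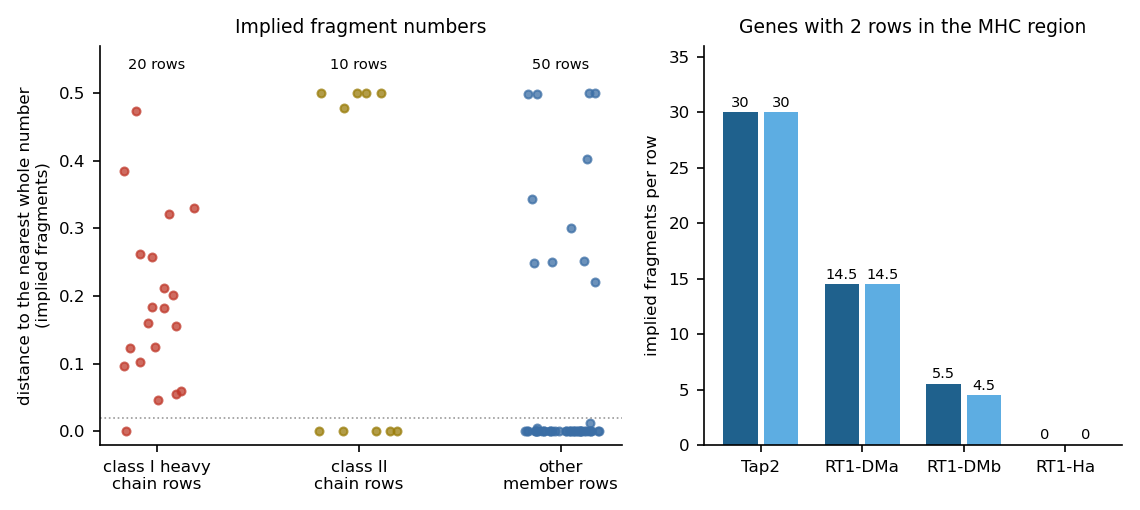
The left panel plots, for 80 member rows with an implied fragment number from 0.5 to 200, its distance to the nearest whole number (dotted line: 0.02), and the right panel gives the implied fragments of each row for 4 genes with 2 rows on chromosome 20. Only 1 of 20 class I heavy chain rows lies below the line, and the RT1-DMa rows carry 14.5 fragments each.

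The partners of class I spanned a wide range. B2m, the light chain shared by all class I molecules, stood at 36.2 FPKM (33.6 to 38.9); its row lies at chr3:120627498-120633521 of rn5. The summed heavy chains were 3.71 times B2m. Tapbp (tapasin), which holds empty class I molecules at the peptide transporter, was at 10.3 FPKM (8.76 to 11.9). The transporter itself was lower. Tap2 summed to 2.37 FPKM (computed bounds 1.76 to 2.99) and Tap1 was at 0.445 FPKM (0.215 to 0.674), on 15 implied fragments. Tap2 was 5.33 times Tap1 (exact 95% counting interval 2.99 to 10.1), but 2.87 times with the higher Tap2 row alone. Nlrc5, the transactivator of class I genes, was at 0.176 FPKM (0.0745 to 0.278).

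Other genes of class I assembly came from a list of 10, of which 8 reached 1 FPKM. Its highest members were the general chaperones Calr (calreticulin) at 142 FPKM (138 to 147) and Hspa5 (BiP) at 121 FPKM (117 to 125). The interferon-inducible immunoproteasome subunits Psmb8 and Psmb9 were at 0.276 FPKM (3 implied fragments) and 0.457 FPKM (4 implied fragments). Psmb10, the third immunoproteasome subunit gene, was higher than both at 5.56 FPKM (4.06 to 7.05). The proteasome activator genes Psme1 and Psme2, also interferon-inducible, stood at 19.3 FPKM (16.5 to 22.1) and 1.42 FPKM (0.791 to 2.04). The aminopeptidase gene Erap1, which trims class I peptides, stood at 10.9 FPKM (9.78 to 12.1).

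The promoters of the class I partners share a sequence feature. RefSeq promoters (250 bases before to 50 after the gene start, build GRCr8) were matched for 89 of the 110 genes and searched on both strands for GAAA, any 2 bases and GAAA again, the core of the interferon-stimulated response element (ISRE). It occurred in 3.92% of all 33469 promoters in the RefSeq table and in 3.70% of those of protein-coding genes. All 4 class I partners with an entry held it: B2m, Tapbp, Tap2 and Tap1. The windows around the matches are shown 5′ to 3′ on the gene's strand, with the matched letters in capitals, to set genes with the same motif beside their different levels. In Tapbp, 2 matches overlap and are capitalised as 1 run, and in Tap1 the match is on the opposite strand.
B2m, chr3:129549155-129549214, plus strand, motif 150 bases before the start: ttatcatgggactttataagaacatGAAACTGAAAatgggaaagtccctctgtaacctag
Tapbp, chr20:4967863-4967928, minus strand, 26 bases before: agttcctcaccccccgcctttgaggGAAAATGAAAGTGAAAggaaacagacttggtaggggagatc
Tap2, chr20:4652303-4652362, minus strand, 41 bases before: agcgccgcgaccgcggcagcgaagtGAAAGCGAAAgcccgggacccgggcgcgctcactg
Tap1, chr20:4668630-4668689, minus strand, 121 bases before: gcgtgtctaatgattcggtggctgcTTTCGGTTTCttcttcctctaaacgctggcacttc

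These genes hold the same core letters at levels from 0.445 FPKM (Tap1) to 36.2 FPKM (B2m). Over all matched members, 19 of 89 (21.3%) held the motif, with a median of 1.35 FPKM and 10 of 19 at 1 FPKM or more. The 70 without it had a median of 0.745 FPKM, with 33 at 1 FPKM or more. Over all symbols the share at 1 FPKM was 61%. Whether genes with and without the motif differ in level was not tested. None of the 3 RT1-A, 6 RT1-CE, 7 RT1-M or 9 class II promoters held these letters within the window. Only this exact pattern was searched, so its absence does not show that these promoters lack an ISRE. In the RT1-N, RT1-O, RT1-S and RT1-T series 3 of 9 did: RT1-N3 (1.37 FPKM), RT1-S2 (0.108 FPKM) and RT1-S3 (5.97 FPKM). A match is a sequence description and does not show a bound site.

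Class II genes were near the floor of the table. Of the 10 chain genes, 1 reached 1 FPKM: RT1-DMa, which loads peptide onto class II molecules, at 2.66 FPKM (computed bounds 1.67 to 3.65) over its 2 rows. The classical chain genes RT1-Ba, RT1-Bb, RT1-Da, RT1-Db1 and RT1-Db2 ranged from 0.124 to 0.709 FPKM, on 8 implied fragments or fewer each. RT1-DOa and RT1-Ha were listed at 0. The 10 genes summed to 5.09 FPKM and 56.5 implied fragments, and the class I heavy chains summed to 26.5 times as much. In bulk tissue, few expressing cells and little RNA per cell cannot be told apart.

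Cd74, the invariant chain that accompanies class II molecules, was at 0.603 FPKM (0.171 to 1.04), and B2m was 60.1 times as high (29.5 to 136). Ciita, the class II transactivator, stood at 2.59 FPKM (2.13 to 3.04) with 130 implied fragments, close to RT1-DMa and above the other 9 class II chain genes. Among 10 further genes of class II control and costimulation, 7 reached 1 FPKM, led by the lysosomal protease gene Ctss at 16.6 FPKM (14.4 to 18.8) and the surface protein gene Cd83 at 10.6 FPKM (9.22 to 11.9). The DNA-binding factors of class II promoters were present, with Rfxap at 9.28 FPKM and Rfx5 at 6.97 FPKM. The costimulatory genes Cd40 and Cd80 were at 0.0623 and 0.198 FPKM and Cd86 was listed at 0. Beside them, B cell markers lay between 0 and 0.221 FPKM, dendritic cell markers between 0 and 2.19 FPKM, and microglial markers between 0 and 5.41 FPKM.

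The 4 receptor genes of type I and type II interferon passed 1 FPKM. The chains of the type III (lambda) receptor did not: Ifnlr1 was at 0.234 FPKM and Il10rb, shared with other cytokines, at 0.456 FPKM (0.152 to 0.760). IFNAR1, a chain of the type I receptor, stood at 18.3 FPKM (17.0 to 19.5), and its partner chain Ifnar2 at 2.04 FPKM (1.34 to 2.74). IFNAR1 was 8.95 times Ifnar2 (6.35 to 13.0). The type II receptor chains were closer: Ifngr1 stood at 8.16 FPKM (6.90 to 9.43) and Ifngr2 at 6.56 FPKM (5.62 to 7.50). Their deposited bounds overlapped and the interval of their ratio, 1.24 (1.01 to 1.54), began close to 1, so no order is read from it. The ratio of implied fragments, which are not divided by length, was 0.854. Of 8 interferon genes found in the table, 7 were listed at 0, among them Ifnb1 and Ifng, and Ifne was at 1.08 FPKM on 5 implied fragments.

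**Figure D3:**
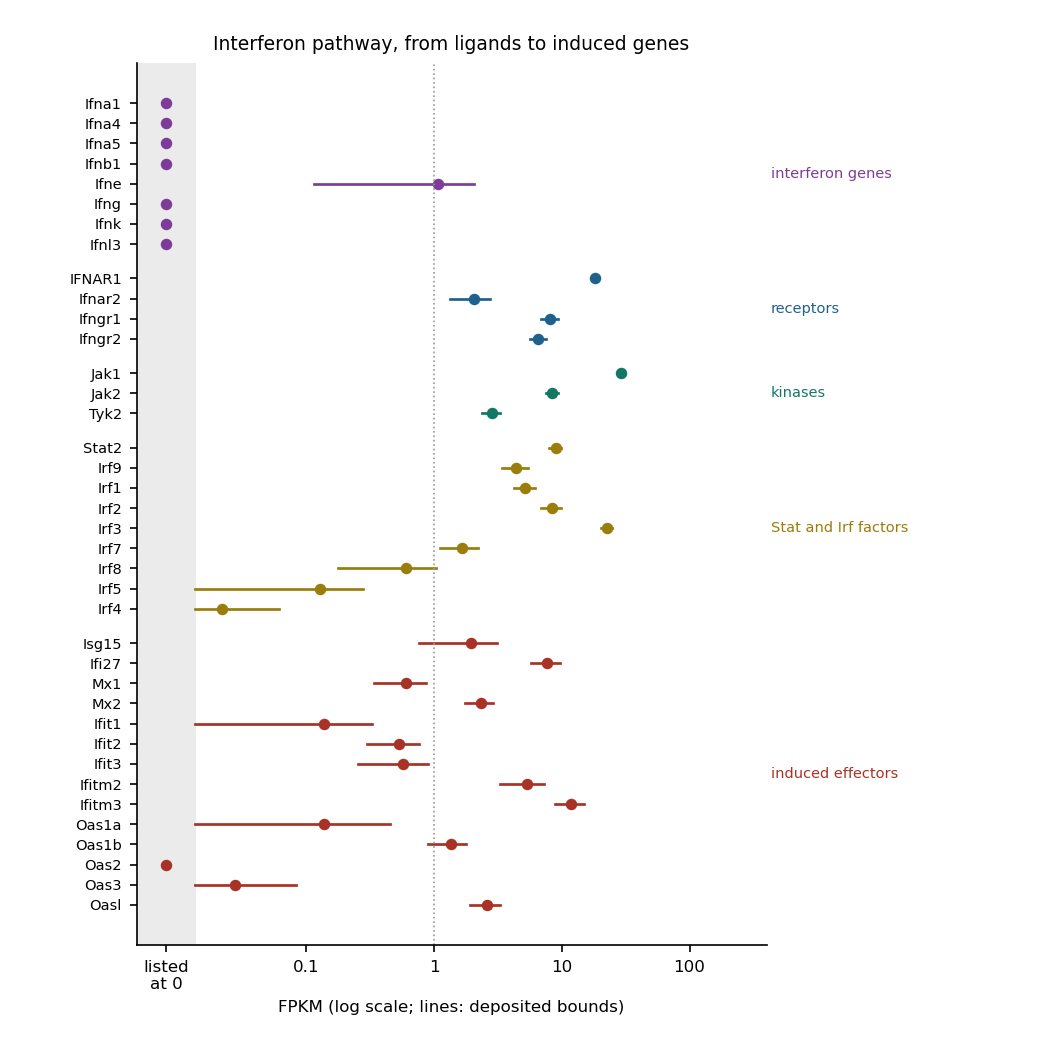
FPKM on a log axis for genes of the interferon pathway from ligands at the top to induced effectors at the bottom, with lines for the deposited bounds (cut at the grey band, which marks values listed at 0). The 4 type I and type II receptor genes and 3 kinase genes lie above 1 FPKM, and 7 of the 8 interferon genes lie in the grey band.

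Of 12 other genes of interferon signal transduction, 7 reached 1 FPKM, beside 61% of all symbols. Jak1, a kinase used by all interferon receptors, stood at 29.3 FPKM (27.8 to 30.8) and the inhibitor gene Pias1 at 23.4 FPKM (21.5 to 25.4). Jak2 was at 8.45 FPKM and Tyk2 at 2.83 FPKM. The feedback inhibitor genes Socs1 and Usp18, both interferon-induced, were at 0.186 and 0.289 FPKM. Socs3, of the same family as Socs1, was at 1.02 FPKM (0.188 to 1.86) on 6 implied fragments.

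Stat2, a transcription factor gene of the type I interferon response, stood at 8.95 FPKM (8.004 to 9.90). Irf9, whose product joins Stat2 in the complex that binds ISRE sequences, was at 4.42 FPKM (3.41 to 5.44). The bounds of Stat2 lay above those of Irf9.

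Of the Irf factor genes, 5 reached 1 FPKM. Irf3, a constitutive factor that interferon gene induction depends on, led at 22.6 FPKM (20.3 to 24.9). Its row overlaps that of Bcl2l12, at 0.545 FPKM. Irf2 was at 8.39 FPKM (6.88 to 9.90) and Irf1 at 5.17 FPKM (4.22 to 6.13). Irf7, which interferon itself raises, was at 1.67 FPKM (1.11 to 2.22), and Irf3 was 13.6 times as high (9.61 to 19.6), a pair chosen after the values were seen. The factors of immune cell lineages, Irf8, Irf5 and Irf4, were at 0.606, 0.128 and 0.0221 FPKM. The 3 Irf2-binding protein genes, which the prefix also picks, are no Irf factors: Irf2bpl stood at 11.0 FPKM, Irf2bp1 at 9.49 FPKM and Irf2bp2 at 3.27 FPKM.

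Interferon effectors were taken as the Ifit, Ifitm and Oas families with Ifi27, Isg15, Mx1 and Mx2. They were picked by symbol, and induction of each by interferon was not tested. These genes were low as a group, with 8 of 26 (30.8%) at 1 FPKM or more, beside 61% of all symbols. Of these effectors 6 were listed at 0, and their median was 0.399 FPKM, against 3.17 FPKM over all symbols. Ifitm3, a membrane protein gene that restricts viral entry, was the highest at 11.9 FPKM (8.93 to 14.9), followed by Ifi27 at 7.69 FPKM (5.72 to 9.67) and Ifitm2 at 5.31 FPKM (3.30 to 7.32). Isg15, a ubiquitin-like modifier, was at 1.94 FPKM (0.769 to 3.10) on 11 implied fragments. Mx2 was at 2.33 FPKM (1.76 to 2.90) and Mx1 at 0.602 FPKM (0.342 to 0.861), both dynamin-like antiviral GTPase genes.

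None of the 4 Ifit genes, whose products bind foreign RNA, reached 1 FPKM. Ifit3 and Ifit2 were at 0.576 and 0.532 FPKM on 13 and 21 implied fragments, and Ifit1 was at 0.137 FPKM on 2. In the Oas family, named for enzymes that make the activator of RNase L, 2 of 12 genes reached 1 FPKM. They were Oasl at 2.60 FPKM (1.91 to 3.29) and Oas1b at 1.35 FPKM (0.899 to 1.80). Whether these 2 members have that enzyme activity was not tested. Oas1d, Oas1h, Oas2 and Oasl2 were listed at 0, and the other 6 lay at or below 0.490 FPKM. Rows of Oas1a, Oas1e, Oas1f, Oas1h, Oas1k and Oas3 overlap other Oas rows, so their separate values are uncertain.

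A further list of interferon-induced genes outside these families held 17, of which 13 reached 1 FPKM, beside 61% of all symbols. Its median was 1.85 FPKM, against 3.17 FPKM over all symbols. Adar, an RNA-editing enzyme that also has a constitutive form, stood at 14.9 FPKM (14.0 to 15.8) and Herc6 at 5.09 FPKM (4.45 to 5.74). The antiviral gene Rsad2 was lower, at 0.611 FPKM.

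ISRE letters were frequent in effector promoters: 5 of 10 Oas, 3 of 5 Ifitm and the only matched Ifit promoter held them. The first 4 windows form 2 pairs of similar sequence whose genes were at different levels, and the Ifit3 window stands on its own as the Ifit match; conventions are as above.
Oas1a, chr12:41330400-41330465, plus strand, 41 bases before the start: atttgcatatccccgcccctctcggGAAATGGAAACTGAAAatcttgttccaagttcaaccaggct
Oas1b, chr12:41395871-41395936, minus strand, 59 bases before: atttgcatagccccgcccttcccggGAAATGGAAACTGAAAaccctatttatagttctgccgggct
Ifitm3, chr1:205541768-205541827, minus strand, 44 bases before: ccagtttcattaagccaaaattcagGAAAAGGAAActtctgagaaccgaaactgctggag
Ifitm7, chr11:46606691-46606750, plus strand, 98 bases before: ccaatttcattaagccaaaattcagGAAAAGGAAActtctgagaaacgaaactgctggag
Ifit3, chr1:241527257-241527316, plus strand, 44 bases before, opposite-strand match: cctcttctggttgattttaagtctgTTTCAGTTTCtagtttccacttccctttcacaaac

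Windows were compared letter by letter without gaps. In the RT1-S3 and RT1-S2 windows, not printed, 46 of 60 positions matched. RT1-S3 holds an extra base after the motif, so the later letters are out of step and this count understates their likeness. The Ifitm windows matched at 58 of 60 positions, with Ifitm3 at 11.9 FPKM and Ifitm7 at 0.696 FPKM. The Oas1 windows matched at 54 of 66 positions, with Oas1b at 1.35 FPKM on 36 implied fragments and Oas1a at 0.137 FPKM on less than 1. These pairs were chosen after their values were seen. Ifitm7 had 3.5 and Ifitm3 64.5 implied fragments, so both numbers lay midway between whole numbers.

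Chemokines, the secreted guides of cell migration, divided into a few genes above 1 FPKM and many at or near 0. Of 12 CXC chemokine genes, 4 reached 1 FPKM. Cxcl14 stood at 16.0 FPKM (14.1 to 17.9) and Cxcl12, which guides neural precursors and vessels as well as leukocytes, at 14.5 FPKM (12.7 to 16.4). The row of Cxcl14 overlaps that of Txndc15, at 18.8 FPKM, so without knowledge of the strand used in counting its value is uncertain. The membrane-bound chemokine gene Cxcl16 was at 6.54 FPKM (5.35 to 7.73), and Cxcl13, known for attracting B cells, was at 2.58 FPKM (1.60 to 3.55) on 28 implied fragments.

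Inflammatory chemokine genes were at the floor. The neutrophil attractants Cxcl1, Cxcl2, Cxcl3 and Cxcl5 were all listed at 0. The interferon-induced genes Cxcl9, Cxcl10 and Cxcl11 were at 0, 0.171 and 0.0879 FPKM, with 3 implied fragments in all. Cxcl12 was 85.3 times Cxcl10 (23.3 to 706, an interval made wide by the 2 fragments of Cxcl10). None of the CC chemokine genes reached 1 FPKM: the monocyte attractant gene Ccl2 was at 0.702 FPKM (0.0741 to 1.33), Ccl5 at 0.490 FPKM and Ccl20 at 0.142 FPKM, and Ccl7 was listed at 0.

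Among 11 chemokine receptor genes found in the table, 2 reached 1 FPKM. Cxcr7, the atypical receptor that takes up Cxcl12, stood at 11.7 FPKM (10.2 to 13.1) on 249 implied fragments. Cxcr4, the signalling receptor of Cxcl12, was at 0.0958 FPKM on 1. Cx3cr1, a microglial receptor for another chemokine, was at 1.37 FPKM (0.743 to 2.00). Cxcr6 and Cxcr5, the receptors of Cxcl16 and Cxcl13, were at 0.190 and 0.0843 FPKM, and Cxcr3, Cxcr1, Ccr1 and Ccr6 were listed at 0.

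**Figure D4:**
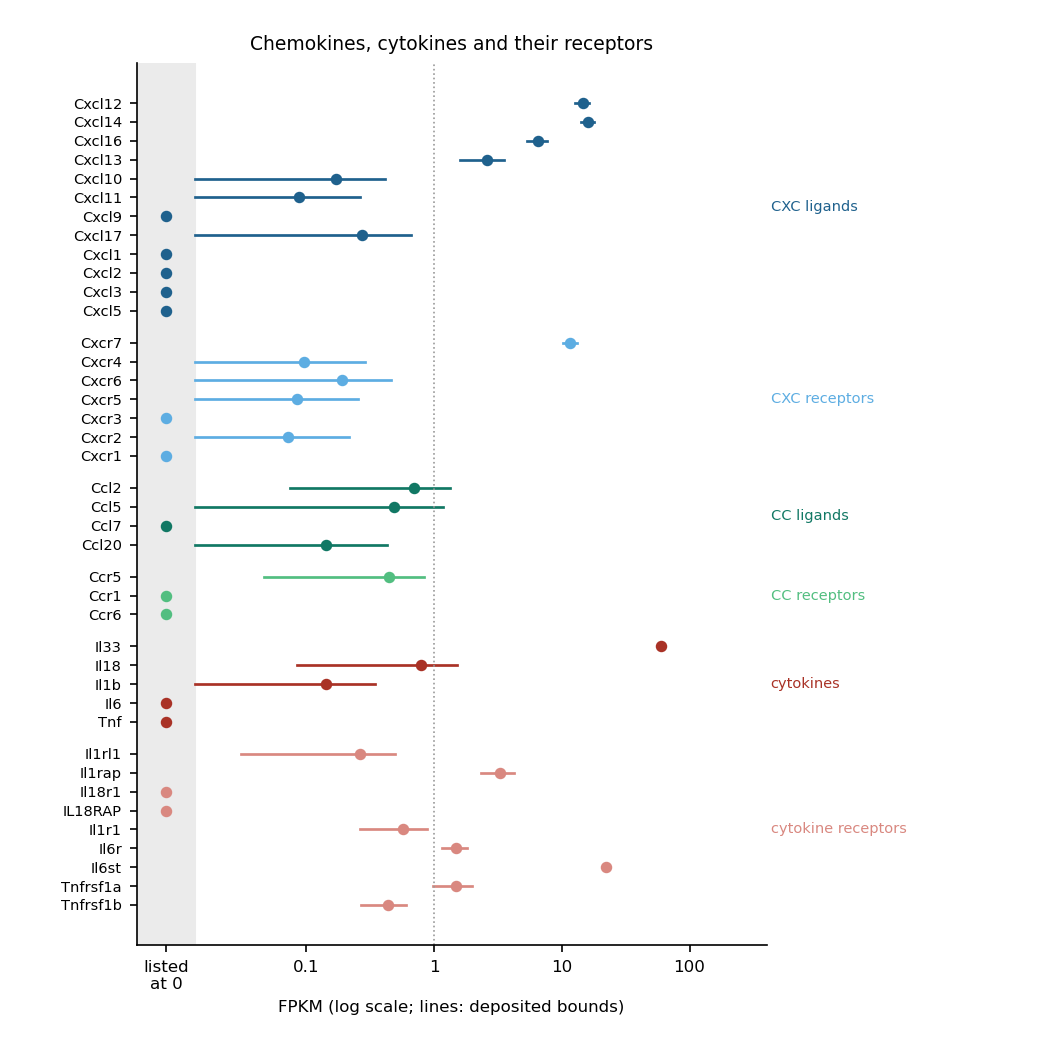
FPKM on a log axis for chemokines, cytokines and their receptors, with lines for the deposited bounds (cut at the grey band, which marks values listed at 0). Il33 at 59.3 FPKM, Il6st at 22.0 FPKM and Cxcr7 at 11.7 FPKM lie far to the right of the other genes of their blocks.

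Of the 5 cytokine genes, Il33 alone reached 1 FPKM. It encodes a nuclear protein of the interleukin-1 family that acts as an alarm signal when released from damaged cells, and its row spans chr1:255386569-255397660. Il18 was at 0.799 FPKM (0.0844 to 1.51), and Il33 was 74.2 times as high (31.7 to 229). Il1b was at 0.144 FPKM on 2 implied fragments, and Il6 and Tnf were listed at 0. Neither of the 2 Il33 promoter entries held the ISRE letters.

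The receptor of Il33 was scarce beside its ligand. Il1rl1, its binding chain (ST2), was at 0.262 FPKM (0.0309 to 0.492), and Il33 was 227 times as high (99.7 to 719), a pair chosen after its values were seen. The shared accessory chain gene Il1rap was at 3.27 FPKM (2.32 to 4.21). For Il18, both receptor chain genes, Il18r1 and IL18RAP, were listed at 0, while the soluble inhibitor gene Il18bp was at 3.25 FPKM (1.68 to 4.83). For Il6, the signalling chain gene Il6st, shared with other cytokines such as ciliary neurotrophic factor, stood at 22.0 FPKM (21.0 to 23.0), and the binding chain gene Il6r at 1.48 FPKM (1.15 to 1.82). The Tnf receptor genes Tnfrsf1a and Tnfrsf1b were at 1.49 and 0.437 FPKM, and the receptor gene of Il1b, Il1r1, at 0.571 FPKM. In all, 5 of 12 cytokine receptor and decoy genes reached 1 FPKM.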

How the data were processed

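RNA of 6 retina samples was sequenced from Ion Total RNA-seq libraries, per the labels' protocols. The authors deposited 1 gene table of FPKM with lower and upper bounds; Cufflinks 2.0.8 and the rn5 build are named in the submitters' processing notes. Not given in the sources used here are the aligner, annotation release, strand handling, bound level and pooling. All 116 member rows have the status OK. Counts cover all members, but some members' own values are not reported here.

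FPKM of rows sharing a symbol, ignoring case, were summed; bounds of sums use the root of summed squares. Implied fragments are the square of 2 × FPKM divided by the distance to the upper bound; over all rows they sum to 6124332. Ratio intervals are exact binomial (Clopper-Pearson, 95%) on rounded implied fragments and cover counting error only. Python 3.11.15, numpy 2.4.6, pandas 2.3.3, scipy 1.17.1 and matplotlib 3.10.9 were used. The implied fragment calculation and the motif search were tested on simulated data, the other calculations were not. The simulated bounds were set at 2 standard errors, so that assumption itself was not tested. Every member may be named; of each other list, the 2 highest genes and receptors of named ligands, while the remaining ones were named after their values were seen. The members and lists were chosen with earlier results of these data known. Alternatives covered row summing, thresholds, bounds, RT1 genes and length scaling.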

Additional observations from a re-analysis of the deposited data

How the results depend on the processing

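The count of 50 genes at 1 FPKM or more became 83 at 0.1 FPKM, 29 at 5 FPKM and 31 without RT1 genes (of 72), and 43 by the lower bound. The median of 0.705 FPKM stayed between 0.602 and 0.705 under 6 alternatives. With implied fragments, which are not divided by length, IFNAR1 to Ifnar2 became 24.4, Il33 to Il18 314 and Ifngr1 to Ifngr2 0.854. Tap2 to Tap1 became 2.87 with the highest row per symbol and 2.46 without repeated chromosome 20 rows (added after seeing the data). The other settings moved no count by over 1.5 times and no ratio beyond its interval; restricting rows by status or to 300 bp changed neither value. No paired analysis was possible because a single value column is tied to no sample. Depth limits the 36 members with up to 10 implied fragments and the 21 listed at 0.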

Other observations

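Sensors of nucleic acids and the NF-kB pathway, which lie upstream of many genes above, were read from lists. Of 15 sensor and adaptor genes, 5 reached 1 FPKM, led by the kinase gene Tbk1 at 11.9 FPKM (10.7 to 13.1) and the adaptor gene Mavs at 7.21 FPKM (6.28 to 8.13). The cytosolic RNA sensors Ddx58 and Ifih1 were at 1.17 and 0.572 FPKM, and Tmem173 (STING) was at 0.0442 FPKM on 1 implied fragment. Of 13 inflammasome and NF-kB genes, 9 reached 1 FPKM, beside 61% of all symbols. The inhibitors Tnfaip3 and Nfkbia were the highest, at 37.8 FPKM (35.5 to 40.2) and 20.1 FPKM (18.0 to 22.3), beside Nfkb1 at 8.93 FPKM and Rela at 7.61 FPKM. Tnf, which induces both inhibitors in many cells, was listed at 0. Casp1, which activates Il1b and Il18, was at 0.149 FPKM on 2 implied fragments. The genes after the 2 highest of each list were named after their values were seen.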
